A study of Homo sapiens with 18 samples.

Results

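The genes described here stood on opposite sides of the control in the knockdowns of EZH2 and E2F1 in MDA-MB-231 cells. They were chosen by their TPM, a transcript abundance scaled by length and by library, in the 6 libraries of the knockdown experiment. A protein-coding gene with a mean of at least 3 TPM over these libraries was taken where both shEZH2 libraries were at most 0.67 times the lower control shRNA library and both shE2F1 libraries were at least 1.5 times the higher one. The reverse direction was taken in the same way. TNC, ADAM19 and OASL were left out by the rule. Of 10754 eligible genes, 118 (1.1%) lay under the control in shEZH2 and above it in shE2F1. The reverse held for 105 (0.976%), so that 223 of the 62703 genes in the files were taken. Because the TPM of both knockdowns chose these genes, their values in the knockdowns are a description and carry no test. Both knockdowns were set against the same 2 control libraries. The readout that the choice did not use was the inhibitor experiment.

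MDA-MB-231 is an established triple-negative breast cancer line of mesenchymal character. All 5 groups were this line, with 2 distinct libraries each. For the knockdowns, cells were exposed to lentivirus for 24 h and then selected in puromycin at 2 µg/ml for 72 h, and the virus, built on pLKO.1, carried a control shRNA or a hairpin that targets EZH2 (shEZH2) or E2F1 (shE2F1). For the inhibitor, cells, described without virus, were kept for 72 h in DMSO or in 1 uM GSK126, which blocks the methyltransferase of EZH2. Only 1 cell line was used, and the study lists a single hairpin per target. Effects of a hairpin other than on its target therefore cannot be told apart from the knockdown. Nothing in the labels says that replicates were separate cultures, and p-values therefore measure the spread between these libraries, which may be technical.

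EZH2 carries the methyltransferase activity of PRC2, a Polycomb complex that trimethylates lysine 27 of histone H3 and keeps developmental genes silent. E2F1 is a transcription factor that drives genes of DNA replication and cell division and is held in check by the retinoblastoma protein. In triple-negative breast cancer cells both are abundant, and EZH2 has been described as a partner of transcription factors as well as a repressor.

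The libraries held 13198932 to 20055550 expected counts, and shEZH2 replicate 1 had the lowest total. EZH2 was at 90.8 and 102 TPM in control shRNA and at 31.9 and 26.5 TPM in shEZH2, an edgeR log2 change of -1.79 ± 0.12 (SE, n = 2 against 2). E2F1 was at 81.6 and 74.7 TPM in control shRNA, 16.1 and 14.6 TPM in shE2F1, and 40.1 and 20 TPM in shEZH2. The transcript of E2F1 was thus lower in both knockdowns, and that of EZH2 in shE2F1 was at 77.1 and 90.8 TPM. Vimentin (VIM), a mesenchymal filament, stood at 1185 to 2860 TPM over all 10 libraries and was lowest in shEZH2. The estrogen and progesterone receptors (ESR1, PGR) stayed at or under 0.17 TPM. Of the other markers of luminal or receptor-positive cells that were checked, FOXA1 stayed at or under 0.24 TPM. The rest were not absent, with GATA3 at 5.86 to 13.8, ERBB2 at 20 to 35.6 and EPCAM at 12.4 to 37.7 TPM. CDH1 was at 0.26 and 0.42 TPM in control shRNA, 2.76 and 1.39 TPM in shEZH2, and 4.5 and 2.25 TPM in shE2F1. The fibroblast marker DCN and the T cell marker CD3E were at 0 in every library, while COL1A1 was at 22.6 and 31.4 TPM in shEZH2 against 8.39 and 6 TPM in control shRNA and 3.49 and 5.06 TPM in shE2F1, the direction of the second set. In bulk RNA, fewer cells of a type and less RNA per cell cannot be told apart.

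The promoter windows of leading genes of each direction are shown because the members were gathered by moving together, and the windows give the sequence that precedes their transcripts. They run from 250 bases before to 50 bases after the RefSeq start on GRCh38.p14, 5′ to 3′ on the strand of the gene, in 300 bases. Capitals mark words searched on both strands. The word for the TEAD factors, partners of YAP, was GGAATG. The word for the TATA box was TATAAA, that for the hypoxia factors ACGTG, and the E-box word was CACGTG, so that every E-box also holds the hypoxia word. The windows lie at chrX:103093094-103093393, minus strand (NXF3), chr12:71157950-71158249, minus strand (TSPAN8), chr3:108510547-108510846, minus strand (MYH15) and chr10:120456704-120457003, plus strand (PLPP4). Those of TSPAN8 and MYH15 fall inside the span that GENCODE gives to the gene, since its outermost transcript starts further upstream.
NXF3: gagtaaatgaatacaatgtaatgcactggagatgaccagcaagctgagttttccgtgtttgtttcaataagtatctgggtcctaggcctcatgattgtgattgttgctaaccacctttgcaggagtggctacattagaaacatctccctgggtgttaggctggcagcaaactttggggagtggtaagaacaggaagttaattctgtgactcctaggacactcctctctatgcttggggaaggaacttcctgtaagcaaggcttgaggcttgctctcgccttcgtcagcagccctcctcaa
TSPAN8: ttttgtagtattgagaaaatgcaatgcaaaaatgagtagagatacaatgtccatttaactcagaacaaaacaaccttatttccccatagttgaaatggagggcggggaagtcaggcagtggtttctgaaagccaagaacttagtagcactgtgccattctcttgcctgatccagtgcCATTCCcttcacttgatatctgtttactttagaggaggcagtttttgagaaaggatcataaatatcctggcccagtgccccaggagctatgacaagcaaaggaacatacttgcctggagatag
MYH15: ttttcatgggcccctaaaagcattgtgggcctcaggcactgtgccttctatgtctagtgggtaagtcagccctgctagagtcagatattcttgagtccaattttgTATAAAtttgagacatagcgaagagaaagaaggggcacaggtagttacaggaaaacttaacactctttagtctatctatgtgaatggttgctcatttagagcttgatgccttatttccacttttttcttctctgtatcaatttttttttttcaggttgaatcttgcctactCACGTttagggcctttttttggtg
PLPP4: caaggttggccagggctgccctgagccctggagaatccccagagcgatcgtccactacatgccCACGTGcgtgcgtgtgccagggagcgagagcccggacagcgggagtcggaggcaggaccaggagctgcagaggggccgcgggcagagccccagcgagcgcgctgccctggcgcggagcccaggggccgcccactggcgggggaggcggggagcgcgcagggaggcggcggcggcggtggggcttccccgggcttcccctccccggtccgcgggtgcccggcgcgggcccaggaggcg
The window of NXF3 held none of the words, that of TSPAN8 held the TEAD word in reverse, that of MYH15 a TATA and a hypoxia word, and that of PLPP4 an E-box.

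Windows were found for 94 of the 105 genes higher in shEZH2 and lower in shE2F1, and for 87 of the 118 genes of the other direction. With 73.7% matched, a share under 80%, a comparison of words over the genes lower in shEZH2 and higher in shE2F1 is void and none is made. Among the 94 windows, 7 held an E2F word, which was TTTGGCGC or TTTCCCGC or TTTGCCGC or TTTCGCGC, or 7.45% beside 5.8% of the windows of all eligible genes. The E-box stood in 14.9% beside 10.6%, the hypoxia word in 26.6% beside 27.8%, TATAAA in 7.45% beside 5.07% and the TEAD word in 2.13% beside 10.8%. The AP-1 words TGACTCA and TGAGTCA stood in 4 of the 94, or 4.26% beside 2.76%. The interferon response word (ISRE) stood in 1.06% beside 2.83%, and TTTGAA (CHR) in 9.57% beside 9.09%. These shares describe letters in the windows and say nothing of a bound factor.

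Across the genes lower in shEZH2 and higher in shE2F1, edgeR put 100 of the 115 that it tested below control in shEZH2, where a call asked for more than 2-fold and an adjusted p under 0.01, beside 10.7% of all genes tested. In shE2F1, 33 of these 115 were called higher, beside 5.6% of all genes. Their median log2 change was -1.42 in shEZH2 and 0.80 in shE2F1. In the other direction 37 of 104 tested genes were called higher in shEZH2 (7.52% of all genes), and 85 were called lower in shE2F1 (5.96%), with median log2 changes of 0.87 and -1.22. The medians over all eligible genes were -0.01 and -0.05. Calls in both knockdowns were made for 28 genes of the first direction and 29 of the second. Of the 10743 eligible genes tested, 404 were called in both in any direction. The calls were opposite in 46 genes in the first direction and 34 in the second. Since the rule used these contrasts, nothing is read from the counts. TPM and edgeR differ here in their zero, as the TPM ratio stood 0.20 above the edgeR change on the log2 scale at the median gene in both knockdowns, so that a rise of 1.5-fold in TPM was a smaller rise in edgeR.

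**Figure D1:**
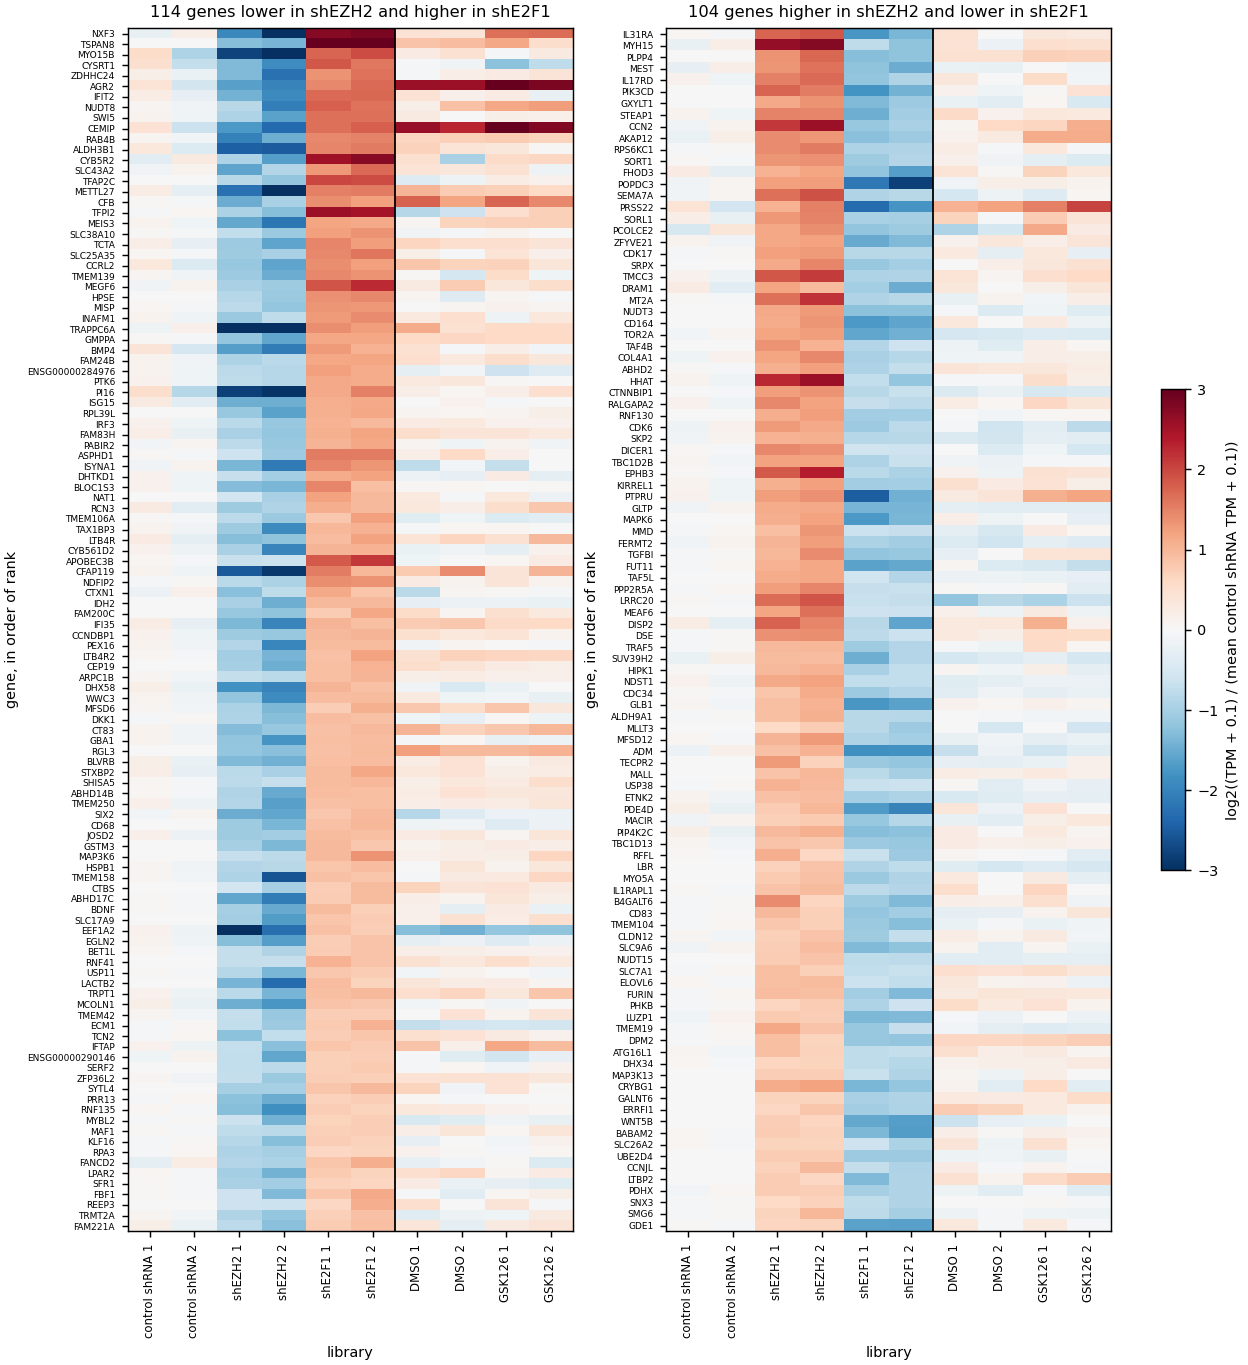
Heat map of TPM in the 10 libraries (columns) for the 114 genes lower in shEZH2 and higher in shE2F1 (left) and the 104 genes higher in shEZH2 and lower in shE2F1 (right) that edgeR tested and whose controls were above 0. Colour gives log2((TPM + 0.1) / (mean control shRNA TPM + 0.1)), clipped at 3 on either side, and the black line parts the knockdown from the inhibitor experiment, where most rows stay pale.

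**Figure D2:**
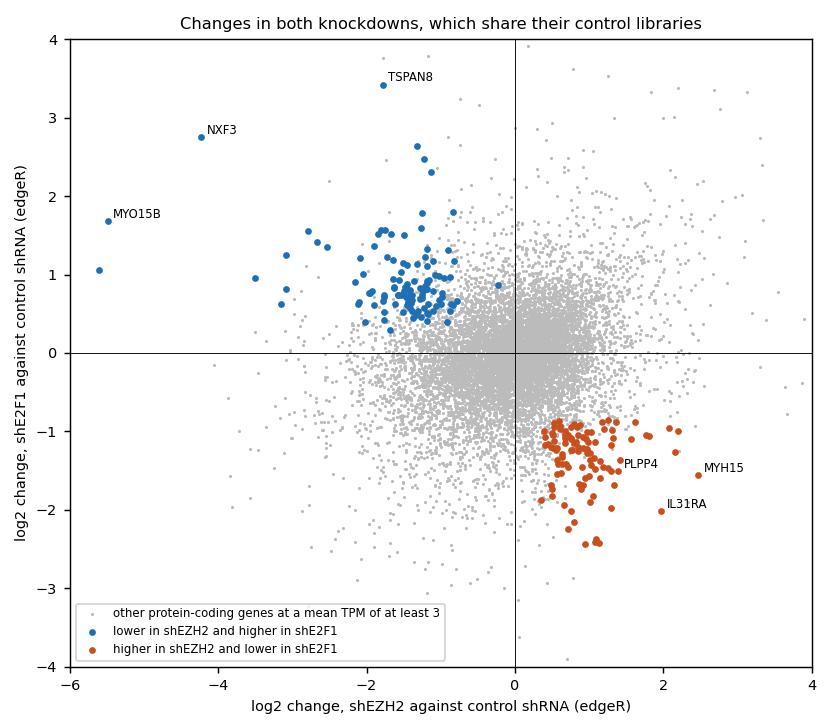
Each point is a protein-coding gene, with its edgeR log2 change in shEZH2 on the horizontal axis and in shE2F1 on the vertical axis. Blue points are genes lower in shEZH2 and higher in shE2F1, orange points the reverse, and grey points the other eligible genes, of which a few lie beyond the axes.

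The thresholds cut through a continuous range. Just inside the first direction, RPA3, a subunit of the protein that coats single-stranded DNA, had a lower shE2F1 library at 1.5 times the higher control, and STXBP2, a syntaxin-binding protein of exocytosis, had a higher shEZH2 library at 0.6695 times the lower control. Just outside were CSPG4 at 1.499 times and MEA1 at 1.498 times in shE2F1. In the second direction, DICER1, the nuclease that cuts microRNA precursors, had a higher shE2F1 library at 0.67 times the lower control, and SNX3, a sorting nexin of endosomes, had a lower shEZH2 library at 1.502 times the higher control. YIPF1 at 1.495 times and UBE2D1 at 1.493 times in shEZH2 were just outside.

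Among the genes lower in shEZH2 and higher in shE2F1, the largest opposite changes were in NXF3, of the family of nuclear RNA export factors, TSPAN8, a tetraspanin of the cell surface, and MYO15B, a myosin-like gene. NXF3 (chrX:103075810-103093143, minus strand) was at 1.13 and 1.56 TPM in control shRNA, 0.28 and 0 TPM in shEZH2, and 9.48 and 10.2 TPM in shE2F1. TSPAN8 (chr12:71125085-71441898, minus strand) was at 4.22 and 4.23 TPM, 1.67 and 1.54 TPM, and 53.9 and 48.8 TPM in the same order. MYO15B (chr17:75587800-75626849, plus strand) was at 11.1 and 3.9 TPM in control shRNA, 1 and 0 TPM in shEZH2, and 25.3 and 29.4 TPM in shE2F1. The controls of MYO15B lay further apart in ratio than the higher of them and shE2F1 did. The log2 changes in shEZH2 and shE2F1 were -4.23 ± 0.68 and 2.75 ± 0.32 for NXF3, -1.78 ± 0.26 and 3.42 ± 0.17 for TSPAN8, and -5.49 ± 0.65 and 1.68 ± 0.33 for MYO15B. TSPAN8 was the member of this set with the largest change in shE2F1 among those with controls above 0.

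Of the same leading group, CEMIP, which binds hyaluronan and promotes its breakdown, was at 14.9 and 7.01 TPM in control shRNA, 3.24 and 2.1 TPM in shEZH2, and 34.7 and 38.1 TPM in shE2F1. AGR2, a protein disulfide isomerase of the secretory pathway, was at 4.25 and 2.14 TPM, 0.97 and 0.72 TPM, and 8.89 and 10.6 TPM. ALDH3B1, an aldehyde dehydrogenase, was at 26.7 and 16.1 TPM, 3.86 and 3.71 TPM, and 59.2 and 62.9 TPM. In each of these genes control shRNA replicate 1 was the higher of the controls. The knockdown groups did not overlap with control shRNA or with each other, as the rule requires. RAB4B, a small GTPase of endosome recycling, was at 10.4 and 9.36 TPM in control shRNA, 2.36 and 3.53 TPM in shEZH2, and 27.1 and 28 TPM in shE2F1. SWI5, which acts with SFR1 in homologous recombination, was at 27.2 and 23 TPM, 13.2 and 8.15 TPM, and 78.6 and 79.3 TPM. ZDHHC24, of the palmitoyltransferase family, was at 7.69 and 5.83 TPM, 2.63 and 1.36 TPM, and 17.5 and 21.2 TPM. The remaining leading genes were NUDT8, a Nudix hydrolase, and CYSRT1, whose log2 changes were -1.67 ± 0.41 and -1.80 ± 0.37 in shEZH2 and 1.52 ± 0.31 and 1.57 ± 0.29 in shE2F1. RAB4B shares its strand and locus with the readthrough gene RAB4B-EGLN2 and lies 2053 bases from EGLN2, another gene of the set, so that their levels are uncertain where reads could be split.

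**Figure D3:**
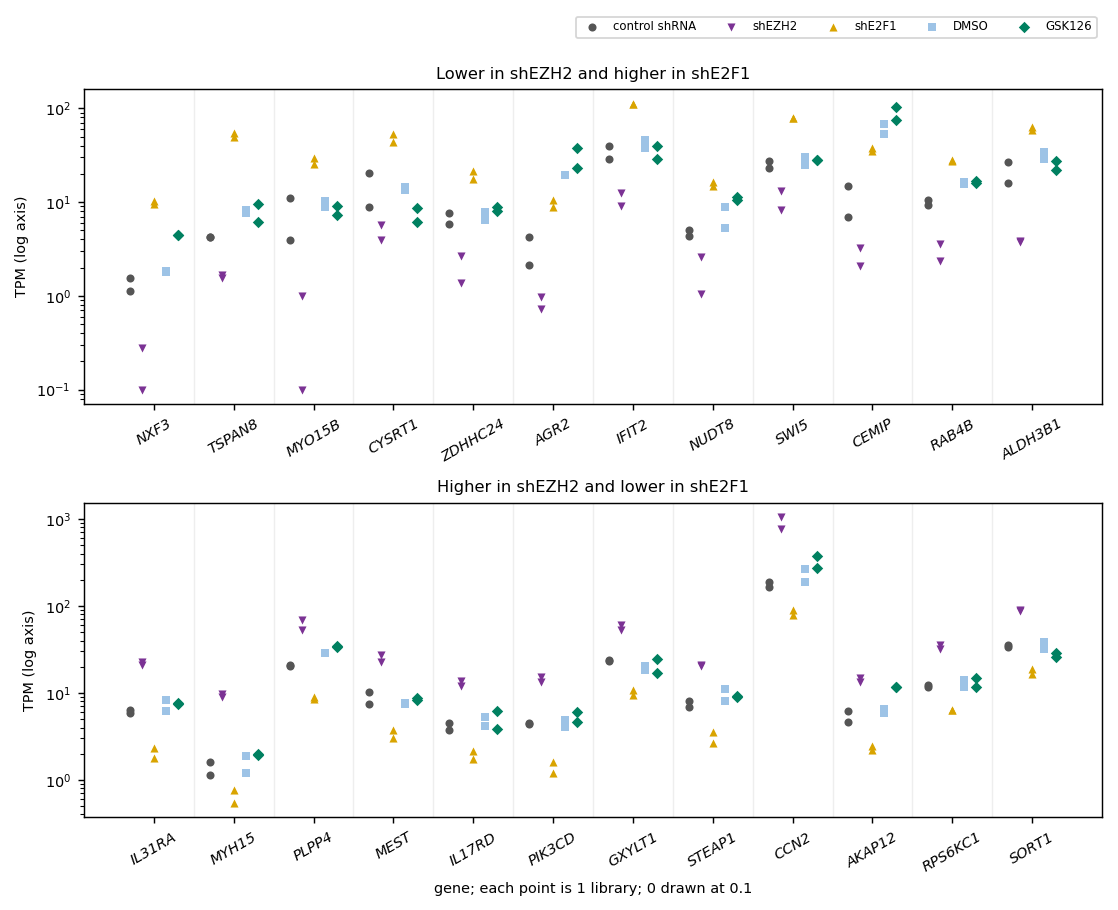
TPM (log axis) of the 12 leading genes in each direction, with a point for each library; a TPM of 0 is drawn at 0.1. By the rule, all shEZH2 points lie under and all shE2F1 points over the control shRNA points in the upper panel, with the reverse below. The DMSO points of AGR2 and CEMIP lie above even shE2F1.

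Of the 48 eligible genes on the list of interferon-stimulated genes, 4 were in the first direction and 0 in the second. The shares over all eligible genes were 1.1% and 0.976%, and the difference was not tested. IFIT2, an interferon-induced protein that binds viral RNA, was at 39.3 and 28.5 TPM in control shRNA, 12.6 and 9.01 TPM in shEZH2, and 110 and 112 TPM in shE2F1. ISG15, a ubiquitin-like modifier, was at 288 and 191 TPM, 86 and 87.1 TPM, and 508 and 528 TPM. DHX58, a helicase that tunes the sensing of viral RNA, was at 8.54 and 6.63 TPM, 2.08 and 1.82 TPM, and 15.4 and 14 TPM. All these groups were apart, as the rule requires. IFI35, a further interferon-induced gene, was at 15.9 and 11.5 TPM, 5.35 and 3.39 TPM, and 27.8 and 25.6 TPM. CFB, complement factor B, was at 6.37 and 6.11 TPM in control shRNA, 2.17 and 3.12 TPM in shEZH2, and 16.5 and 14.8 TPM in shE2F1, and its locus overlaps that of C2 on the same strand. Members of related role that no list held were IRF3, a transcription factor of the interferon response, APOBEC3B, a cytidine deaminase, and RNF135, a ubiquitin ligase of RNA sensing, and they were picked out after their values were seen.

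On the list of 54 interferon-stimulated genes, 53 were tested. In shEZH2, 15 were called lower and 1 higher, beside 10.7% and 7.52% of all genes tested, and their median log2 change was -0.56, beside -0.01 over all eligible genes. In shE2F1, 11 were called higher and 2 lower, beside 5.6% and 5.96%, with a median of 0.39 beside -0.05. Without shE2F1 replicate 1, 6 were called higher in shE2F1. Of the 53, the 4 named above met the rule of opposite movement, and OASL was left out by the rule. Neither knockdown's count on this list was tested against other lists.

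Secreted factors and their regulators also stood in the first direction. BMP4, a ligand of the TGF-beta family, was at 278 and 150 TPM in control shRNA, 68.3 and 49.8 TPM in shEZH2, and 520 and 440 TPM in shE2F1. DKK1, a secreted inhibitor of Wnt signalling, was at 343 and 363 TPM, 185 and 146 TPM, and 676 and 648 TPM. BDNF, a neurotrophin, was at 21.1 and 20.1 TPM, 10.2 and 7.18 TPM, and 40 and 33.8 TPM. The spread of BMP4 between its controls was wider than that of DKK1 and BDNF, whose controls nearly coincided. ECM1, a glycoprotein of the extracellular matrix, was at 88.9 and 91.9 TPM in control shRNA, 54.3 and 42.7 TPM in shEZH2, and 155 and 185 TPM in shE2F1. TFPI2, an inhibitor of serine proteases in the matrix, was at 22 and 23.8 TPM, 11.9 and 9.32 TPM, and 137 and 129 TPM. Its log2 change in shE2F1, 2.48 ± 0.15, was among the largest of the set, and that in shEZH2 was -1.23 ± 0.17.

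Transcription factors and stress genes of the lists were also present. TFAP2C, an AP-2 factor of epithelial development, was at 3.45 and 3.49 TPM in control shRNA, 1.9 and 1.47 TPM in shEZH2, and 14.2 and 13.7 TPM in shE2F1. The homeobox genes MEIS3 and SIX2 had log2 changes of -2.09 ± 0.37 and -1.77 ± 0.21 in shEZH2 and of 1.21 ± 0.28 and 0.71 ± 0.17 in shE2F1. MYBL2, a factor of the cell division programme, was at 45 and 47 TPM, 29.6 and 17.2 TPM, and 73.6 and 77.2 TPM. It was the only member among the 52 S phase and 57 G2/M phase genes of the lists, of which 0 were called higher in either knockdown. Called lower were 18 and 10 of them in shEZH2, beside 10.7% of all genes, and 4 and 14 in shE2F1, beside 5.96%. HSPB1, a small heat shock protein, was at 498 and 438 TPM in control shRNA, 254 and 261 TPM in shEZH2, and 828 and 891 TPM in shE2F1. CYB5R2, a cytochrome b5 reductase, was at 1.78 and 2.71 TPM, 1.14 and 0.64 TPM, and 13.6 and 15.4 TPM, and FBF1, a protein of centriole appendages, at 5.57 and 5.26 TPM, 3.5 and 2.09 TPM, and 9.69 and 12 TPM.

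The other 84 genes of the first direction that were tested had log2 changes from -5.60 to -0.23 in shEZH2 and from 0.29 to 2.31 in shE2F1, with control levels of 2.54 to 317 TPM. They are grouped here by known role, after their names were seen. Lysosomal genes were CD68, MCOLN1 and CTBS, of which MCOLN1 encodes a calcium channel. Membrane traffic was represented by TRAPPC6A, BLOC1S3, BET1L, SYTL4 and NDFIP2. Receptors were LTB4R and LTB4R2, which bind leukotriene B4, the lysophosphatidic acid receptor LPAR2 and the chemerin receptor CCRL2. DNA repair and recombination held SFR1, the partner of SWI5, and FANCD2 of the Fanconi pathway. SFR1 was at 10.9 and 10.4 TPM in control shRNA, 5.42 and 5.09 TPM in shEZH2, and 17.2 and 16.6 TPM in shE2F1, on the same sides as SWI5. In shE2F1 the log2 changes were 0.41 ± 0.16 for SFR1 and 0.45 ± 0.13 for FANCD2, and neither was called. Metabolic enzymes were IDH2, BLVRB, GSTM3, DHTKD1, ISYNA1, NAT1, GMPPA, LACTB2, ABHD14B, HPSE and CYB561D2, and carriers were SLC43A2, SLC38A10, SLC25A35, SLC17A9, MFSD6 and TCN2.

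Kinases, ubiquitin enzymes and small signalling proteins of the set were PTK6, MAP3K6, RGL3, EGLN2, RNF41, USP11, JOSD2, ABHD17C, WWC3, SHISA5, TMEM158 and CCNDBP1. EGLN2, an oxygen-sensing prolyl hydroxylase, was at 76.3 and 65.2 TPM in control shRNA, 28.9 and 22.5 TPM in shEZH2, and 118 and 129 TPM in shE2F1. Regulators of transcription, RNA and translation were KLF16, MAF1, ZFP36L2, EEF1A2, RPL39L, TRPT1, TRMT2A and METTL27. EEF1A2, a translation elongation factor of nerve and muscle, was at 14.8 and 12.1 TPM, 1.12 and 2.72 TPM, and 24.8 and 22.5 TPM. The cytoskeleton and cilium held ARPC1B, MISP, CEP19, CFAP119, IFTAP and FAM83H. Of mixed or uncertain role were REEP3, TAX1BP3, TCTA, TMEM139, MEGF6, INAFM1, FAM24B, ENSG00000284976, PI16, PABIR2, ASPHD1, RCN3, TMEM106A, CTXN1, FAM200C, PEX16, CT83, TMEM250, TMEM42, ENSG00000290146, SERF2, PRR13 and FAM221A. The lowest change in shEZH2, -5.60 ± 0.71, was that of TRAPPC6A, which was at 0 and 0.26 TPM there and at 4.27 and 5.29 TPM in control shRNA.

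Of the 118 genes, 3 had both control libraries at 0 TPM, so that the lower side of the rule was met by 0 in every shEZH2 and control library and showed no decrease. They were GKN2, a gastric mucosal protein at 12.6 and 11.2 TPM in shE2F1, and the unnamed genes ENSG00000288625, at 8.01 and 34.7 TPM there, and ENSG00000288914, at 35 and 0 TPM. A further unnamed gene, ENSG00000285133, was at 64.1 and 21.8 TPM in control shRNA, 0 in both shEZH2 libraries, and 100 and 272 TPM in shE2F1, and overlaps DDIT3 on its strand. These unnamed genes were not tested by edgeR, whose filter on low counts they did not pass. In the second direction, ENSG00000288570 had controls at 0 TPM and 24.4 TPM in shEZH2 replicate 2 alone. On the same strand, 23 genes of the first direction and 9 of the second overlapped a further coding gene. The share over all eligible genes was not counted, and 95 and 96 genes were left without these members. Others overlapped a gene on the opposite strand, as IFIT2 did LIPA and CEMIP did MESD, and whether the counting used strand is not stated.

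Among the genes higher in shEZH2 and lower in shE2F1, the largest opposite changes were in IL31RA, a cytokine receptor chain, MYH15, a myosin heavy chain, and PLPP4, a phospholipid phosphatase. IL31RA (chr5:55851357-55922854, plus strand) was at 6.37 and 5.88 TPM in control shRNA, 20.7 and 22.7 TPM in shEZH2, and 1.77 and 2.3 TPM in shE2F1. MYH15 (chr3:108380368-108529322, minus strand) was at 1.15 and 1.59 TPM, 9.08 and 9.8 TPM, and 0.76 and 0.54 TPM. PLPP4 (chr10:120457227-120592065, plus strand) was at 21.1 and 20.6 TPM, 53.5 and 68.8 TPM, and 8.56 and 9.01 TPM. In MYH15 the higher shE2F1 library was at 0.661 times the lower control, close to the limit of the rule, while it was at 0.391 times in IL31RA and 0.437 times in PLPP4. The log2 changes in shEZH2 and shE2F1 were 1.97 ± 0.11 and -2.02 ± 0.13 for IL31RA, 2.47 ± 0.18 and -1.56 ± 0.22 for MYH15, and 1.39 ± 0.14 and -1.51 ± 0.15 for PLPP4. IL31RA thus moved by nearly the same amount either way.

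Of the other leading genes, IL17RD, a membrane inhibitor of fibroblast growth factor signalling, was at 4.5 and 3.74 TPM in control shRNA, 12 and 13.6 TPM in shEZH2, and 1.75 and 2.14 TPM in shE2F1. PIK3CD, a catalytic subunit of phosphoinositide 3-kinase, was at 4.41 and 4.52 TPM, 15.1 and 13.2 TPM, and 1.21 and 1.62 TPM. AKAP12, which anchors protein kinase A, was at 4.66 and 6.14 TPM, 14.7 and 13.5 TPM, and 2.2 and 2.48 TPM. None of the groups of these genes overlapped, as the rule requires. The remaining leading genes were MEST, an imprinted gene, GXYLT1, a xylosyltransferase that acts on Notch, STEAP1, of a family of metalloreductases, RPS6KC1, of the ribosomal S6 kinase family, and SORT1, the sorting receptor sortilin. Their log2 changes ran from 1.14 (SORT1) to 1.41 (MEST) in shEZH2 and from -1.18 (RPS6KC1) to -1.50 (GXYLT1) in shE2F1. SORT1 was at 35.2 and 33.9 TPM in control shRNA, 87 and 89.8 TPM in shEZH2, and 16.5 and 18.7 TPM in shE2F1.

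The list of collagens and matrix held 4 members of this direction among its 53 eligible genes, COL4A1, LTBP2, SRPX and TGFBI. It held 1 of the other direction, ECM1, and the shares over all eligible genes were 0.976% and 1.1%. These counts were not tested. The 4 members are given with CCN2, of the list of TGF-beta and YAP responses, and with PCOLCE2 and DSE, of no list. CCN2, a matricellular protein and target of YAP, was at 163 and 189 TPM in control shRNA, 760 and 1047 TPM in shEZH2, and 79.6 and 89.3 TPM in shE2F1. TGFBI, an adhesion protein induced by TGF-beta, was at 61 and 64.7 TPM, 125 and 167 TPM, and 27.4 and 28.6 TPM. COL4A1, a collagen of basement membranes, was at 18.6 and 22.4 TPM, 46.7 and 55.9 TPM, and 10.4 and 11.2 TPM. In CCN2, TGFBI and COL4A1 shEZH2 replicate 2 was the higher of its group. SRPX, a sushi-repeat protein, was at 42.8 and 42.6 TPM in control shRNA, 94.7 and 118 TPM in shEZH2, and 19.5 and 21 TPM in shE2F1. LTBP2, which binds fibrillin, had log2 changes of 0.45 ± 0.16 in shEZH2 and -1.16 ± 0.17 in shE2F1. Those of PCOLCE2, an enhancer of procollagen processing, were 1.08 ± 0.27 and -2.41 ± 0.34. Those of DSE, which makes dermatan sulfate, were 1.26 ± 0.10 and -0.86 ± 0.10. Among 68 tested genes of the list of collagens and matrix, 17 were called higher and 13 lower in shEZH2, and 8 higher and 16 lower in shE2F1. Over all genes tested, 7.52% were called higher and 10.7% lower in shEZH2, and 5.6% and 5.96% in shE2F1. The medians of the list were 0.23 and -0.35, beside -0.01 and -0.05 over the eligible genes. Without shEZH2 replicate 2, 9 of them were called higher in shEZH2.

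Secreted and surface signals are given next, with PTPRU, which is on no list. ADM, the peptide hormone adrenomedullin, was at 77.6 and 96.6 TPM in control shRNA, 161 and 181 TPM in shEZH2, and 24.3 and 24.8 TPM in shE2F1. WNT5B, a Wnt ligand, was at 24.2 and 24.6 TPM, 40.6 and 38 TPM, and 8.37 and 7.67 TPM. SEMA7A, a membrane-anchored semaphorin, was at 73.1 and 83.3 TPM, 246 and 296 TPM, and 41.5 and 44 TPM. EPHB3, an ephrin receptor kinase, had the larger change on the shEZH2 side, with 3.53 and 3.3 TPM in control shRNA, 12.4 and 17.8 TPM in shEZH2, and 1.91 and 1.71 TPM in shE2F1. PTPRU, a receptor tyrosine phosphatase, had the larger change on the shE2F1 side, with 5.57 and 4.68 TPM, 12.4 and 13.5 TPM, and 0.84 and 1.81 TPM. ERRFI1, an inhibitor of the epidermal growth factor receptor, was at 185 and 184 TPM in control shRNA, 282 and 327 TPM in shEZH2, and 90.2 and 97 TPM in shE2F1. Its log2 change in shEZH2 was 0.51 ± 0.10 on the edgeR scale, which was not called.

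MT2A, a metallothionein that binds zinc and copper, was the most abundant gene of both directions, at 3891 and 3649 TPM in control shRNA, 11846 and 17072 TPM in shEZH2, and 2028 and 2109 TPM in shE2F1. ELOVL6, a fatty acid elongase, was at 33.5 and 30.7 TPM, 59.7 and 61.9 TPM, and 20.4 and 19.2 TPM. CLDN12, a claudin, was at 34 and 30 TPM, 52.2 and 58.1 TPM, and 15.3 and 19.4 TPM, and its locus overlaps GTPBP10 and CDK14 on the same strand. MT2A belongs to a family of near-identical metallothioneins, and reads shared among them were divided by the authors' counting, which leaves its level uncertain. DICER1 was at 22.1 and 21 TPM in control shRNA, 58.3 and 55.8 TPM in shEZH2, and 14.1 and 14 TPM in shE2F1. CD83, FUT11, MMD and MACIR, named for their values under GSK126, had log2 changes of 0.64, 0.89, 0.92 and 0.72 in shEZH2 and of -1.33, -1.74, -1.07 and -1.04 in shE2F1.

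The other 71 tested genes of this direction had log2 changes from 0.35 to 2.20 in shEZH2 and from -2.43 to -0.88 in shE2F1, at control levels of 1.56 to 148 TPM. Grouped by role after their names were seen, regulators of the cell cycle and kinases were CDK6, CDK17, SKP2, CDC34, CCNJL, MAPK6, MAP3K13, HIPK1, PHKB, PPP2R5A and PIP4K2C. CDK6, a kinase of the G1 phase, was at 15.3 and 18.5 TPM in control shRNA, 41.1 and 37.4 TPM in shEZH2, and 7.84 and 9.71 TPM in shE2F1. SKP2, which marks the inhibitor p27 for degradation, was at 26.8 and 31.2 TPM, 59.9 and 60.5 TPM, and 16.1 and 16.2 TPM. Chromatin and transcription held SUV39H2, a histone H3 lysine 9 methyltransferase, MEAF6, TAF4B, TAF5L, MLLT3 and LBR, and RNA decay held DHX34 and SMG6. SUV39H2 was at 16.6 and 21.5 TPM in control shRNA, 37 and 36.1 TPM in shEZH2, and 6.88 and 10.3 TPM in shE2F1. Endosomes, lysosomes and autophagy were represented by GLB1, SORL1, CD164, MYO5A, ATG16L1, DRAM1, TECPR2, ZFYVE21, TBC1D13, TBC1D2B and RFFL. GLB1, the lysosomal beta-galactosidase, was at 56.9 and 51.1 TPM, 101 and 111 TPM, and 15.9 and 17.6 TPM.

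Lysosomal genes thus stood in both directions, CD68, MCOLN1 and CTBS in the first and GLB1 in the second. Enzymes of glycans, lipids and metabolism in the second direction were NDST1, GALNT6, B4GALT6, DPM2, GLTP, ETNK2, ABHD2, GDE1, PDE4D, ALDH9A1, PDHX and NUDT3, and the carriers were SLC7A1, SLC26A2 and MFSD12. Hedgehog and Wnt regulators were HHAT, DISP2 and CTNNBIP1. HHAT, which attaches palmitate to Hedgehog ligands, was at 1.7 and 1.42 TPM in control shRNA, 7.83 and 9.76 TPM in shEZH2, and 0.89 and 0.64 TPM in shE2F1. Adhesion and the cytoskeleton held FERMT2, KIRREL1, FHOD3, LUZP1, POPDC3, CRYBG1, MALL and IL1RAPL1. Proteases and ubiquitin enzymes were FURIN, PRSS22, RNF130, USP38, UBE2D4 and BABAM2, and FURIN, the proprotein convertase, was at 36.5 and 39 TPM, 71.6 and 71 TPM, and 18.4 and 15.1 TPM. The rest were RALGAPA2, TRAF5, TMCC3, LRRC20, TOR2A, TMEM19 and TMEM104.

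GSK126 was compared with DMSO to see where the genes stood when the methyltransferase was inhibited and EZH2 itself was not targeted by a hairpin. With edgeR, no gene was called higher (0%) or lower (0%) among 14632 tested, in either set or outside it, whereas DESeq2 called 10 genes, all higher, and edgeR called 37 to 43 genes when any of the 4 libraries was left out. With the replicate number as a block, a pairing that no label states, edgeR called 53 genes higher and 15 lower. At an unadjusted p under 0.05 in edgeR without the block, 457 genes were higher and 120 lower, 3.12% and 0.82% of those tested. Of the 114 tested genes lower in shEZH2 and higher in shE2F1, 5 were higher and 2 lower at that level (4.39% and 1.75%). Of the 104 genes of the other direction, 11 were higher and 3 lower (10.6% and 2.88%). The median log2 changes were -0.04 and 0.04, beside -0.01 over the eligible genes. The quartiles were -0.16 and 0.09 in the first direction, -0.06 and 0.17 in the second, and -0.09 and 0.07 over the eligible genes, of which 2.41% were higher and 0.811% lower at an unadjusted p under 0.05.

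The member nearest to a call under GSK126 was TFPI2, at 12.7 and 14.9 TPM in DMSO and 32.3 and 37.4 TPM in GSK126. Both treated libraries lay above both DMSO libraries, and the log2 change was 1.12 ± 0.14 (SE, n = 2 against 2) with an adjusted p of 0.579 in edgeR. DESeq2 gave an adjusted p of 0.000934 and called it, and without DMSO replicate 1, DMSO replicate 2, GSK126 replicate 1 or GSK126 replicate 2 edgeR called it too, at log2 changes of 1.08, 1.17, 1.01 and 1.23. Over all alternatives its adjusted p ran from 6.4e-12 to 0.935. TFPI2 was lower in shEZH2, so that the inhibitor and the hairpin stood on opposite sides of their controls. AKAP12 was at 5.95 and 6.53 TPM in DMSO and 11.8 and 11.8 TPM in GSK126, a log2 change of 0.91 ± 0.13 with an adjusted p of 0.646 in edgeR (0.00379 in DESeq2, with a change under 2-fold, and 8.31e-13 to 0.935 over all alternatives). AKAP12 stood higher both in shEZH2 and in GSK126.

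The other members with an unadjusted p under 0.05 are listed with their edgeR values, none of which passed adjustment in the fit without a replicate block. In the first direction CYB5R2 (1.12 ± 0.33), AGR2 (0.54 ± 0.20), CEMIP (0.51 ± 0.16) and FBF1 (0.41 ± 0.16) were on the higher side and CYSRT1 (-0.92 ± 0.27) and ALDH3B1 (-0.40 ± 0.14) on the lower side. CEMIP was at 67.7 and 53.6 TPM in DMSO and 102 and 75.3 TPM in GSK126, and CYB5R2 at 3.15 and 1.09 TPM and at 3.37 and 3.48 TPM, where DMSO replicate 2 alone was low. In the second direction the higher ones were PTPRU (0.77 ± 0.13), PCOLCE2 (0.72 ± 0.29), MACIR (0.54 ± 0.15), TGFBI (0.51 ± 0.15), EPHB3 (0.51 ± 0.18), CD83 (0.50 ± 0.18), MMD (0.45 ± 0.14), LTBP2 (0.38 ± 0.13), DSE (0.31 ± 0.12) and COL4A1 (0.30 ± 0.11). PTPRU was at 6.21 and 6.71 TPM in DMSO and 10.8 and 11.8 TPM in GSK126, and TGFBI at 52.9 and 63.4 TPM and at 83.7 and 83 TPM. Both pairs of libraries were apart in these genes. The lower ones were ERRFI1 (-0.52 ± 0.10), FUT11 (-0.47 ± 0.18) and SORT1 (-0.34 ± 0.11), and ERRFI1 was at 311 and 293 TPM in DMSO and 226 and 200 TPM in GSK126. Of the leading genes, NXF3 (0.31 ± 0.36), IL31RA (0.02 ± 0.16), TSPAN8 (-0.00 ± 0.24) and MYH15 (0.06 ± 0.29) had edgeR changes under their errors. In TPM, however, NXF3 was at 1.86 and 1.8 TPM in DMSO and at 4.47 and 4.49 TPM in GSK126. Why TPM and edgeR differ for NXF3 was not tested.

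**Figure D4:**
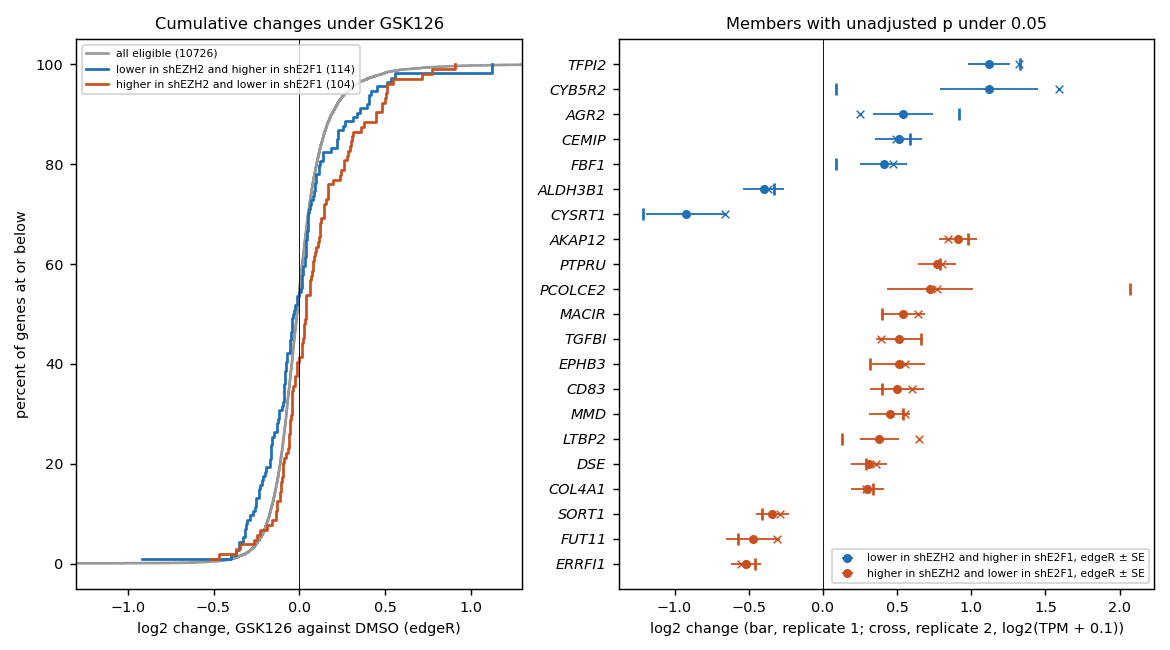
Left, percent of genes at or below each edgeR log2 change under GSK126, for all eligible genes (grey), for the genes lower in shEZH2 and higher in shE2F1 (blue) and for the reverse (orange), whose curve lies to the right of grey over its upper part. Right, the members with an unadjusted p under 0.05 with edgeR log2 change ± SE (points and lines) and the log2(TPM + 0.1) difference of the same-numbered libraries (bar and cross), where TFPI2 and AKAP12 lie far from 0 in both.

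Both GSK126 libraries lay above both DMSO libraries in 35 of the 105 genes higher in shEZH2 and lower in shE2F1 (33.3%), and below in 8 (7.62%). The shares over all eligible genes were 16.5% and 10.6%. In the other direction 22 genes lay above (18.6%) and 20 below (16.9%). These counts were made on TPM and were not tested.

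The DMSO cells are described without virus or puromycin, and their levels tell where the genes stood outside the knockdown experiment. Among the genes lower in shEZH2 and higher in shE2F1, both DMSO libraries lay above both control shRNA libraries in 55 (46.6%) and below in 13 (11%), beside 26.2% and 25.3% of all eligible genes. Among the genes of the other direction, 25 lay above (23.8%) and 31 below (29.5%). The count of 13 was 19 to 29 with a library left out (27 without DMSO replicate 1, 24 without DMSO replicate 2, 29 without control shRNA replicate 2), that of 25 was 40 without control shRNA replicate 1 and 55 without DMSO replicate 2, and that of 31 was 53 without DMSO replicate 1. CEMIP and AGR2, at 19.6 and 19.5 TPM, were higher in DMSO than even in shE2F1. CFB, at 21.6 and 14.2 TPM, stood near shE2F1, while EEF1A2, at 5.46 and 4.89 TPM, stood between control shRNA and shEZH2. In the second direction PRSS22, a serine protease, was at 5.99 and 6.7 TPM in DMSO against 3.8 and 1.88 TPM in control shRNA, and LRRC20 was at 11.9 and 15.2 TPM against 28.2 and 26.5 TPM. Virus, selection and the separate experiment differ together between these groups and cannot be told apart.

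The directions also differed in properties of their transcripts that the rule did not use. GC content of the longest GENCODE transcript, known for all members, had a median of 55.8% in the 118 genes lower in shEZH2 and higher in shE2F1, 47.4% in the 105 genes of the reverse direction, and 47.7% in all eligible genes. The median length of that transcript was 2473, 4672 and 3886 bases, and the gene spanned 12091, 71783 and 33420 bases in the genome. Chromosome 19 held 18 genes of the first direction (15.3%) and 3 of the second (2.86%), beside 7.49% of eligible genes, and chromosome 1 held 7 (5.93%) and 17 (16.2%), beside 10.3%. Within 100000 bases of each other lay 7 pairs of the first direction and 0 of the second. Such pairs were not counted over all eligible genes, so nothing is read from these numbers. The pair of CEMIP and ENSG00000288625 rests on a gene with controls at 0 TPM. Among the pairs were LTB4R and LTB4R2, which overlap on 1 strand and whose levels are therefore uncertain, TRAPPC6A and BLOC1S3 at 546 bases on opposite strands, ABHD17C and CEMIP at 23721 bases, and EEF1A2 and PTK6 at 28761 bases.

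**Figure D5:**
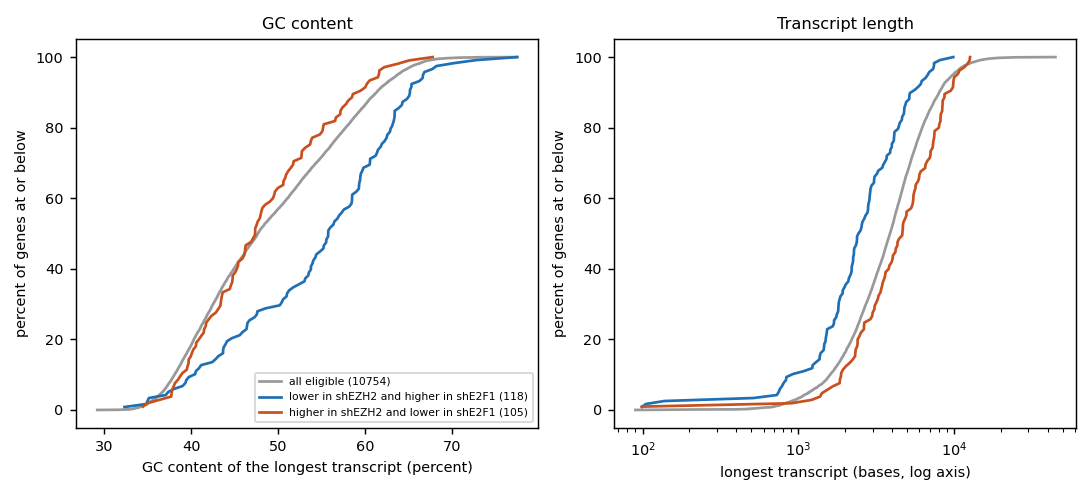
Percent of genes at or below each GC content (left) and each length (right, log axis) of the longest transcript, for all eligible genes (grey), the genes lower in shEZH2 and higher in shE2F1 (blue) and the reverse (orange). The blue curves lie toward higher GC content and shorter transcripts, with medians of 55.8% and 2473 bases.

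The genes taken by the rule changed with the scale. When counts were scaled by TMM and corrected in each library for GC content and length, the rule took 83 and 126 genes, and 52 of the 118 (44.1%) and 59 of the 105 (56.2%) were among them. The genes taken on the corrected scale had a median GC content of 53.1% and 52.2% and a median length of 3703 and 3439 bases. Because the correction takes trends with GC content and length out of each library, smaller differences between the directions follow from it and are no test. On TMM-scaled CPM without that correction, 72 of the 118 (61%) and 66 of the 105 (62.9%) met the rule. Of the 12 leading genes, 12 and 12 met it on TMM-scaled CPM and 10 and 12 on the corrected scale, CYSRT1 and NUDT8 being the exceptions. The leading genes were ranked by edgeR changes on TMM-scaled counts of these same libraries, so that their counts here are no test. Of the interferon genes, IFIT2 and ISG15 met the rule on both scales, IFI35 and DHX58 on neither. Of the secreted factors, transcription factors and stress genes named above, BMP4, BDNF, ECM1, SIX2 and MYBL2 met it on neither. DKK1 and HSPB1 met it on TMM-scaled CPM alone, TFPI2, TFAP2C and MEIS3 on both. Of the matrix and signal genes of the second direction, LTBP2 and ERRFI1 met it on neither, TGFBI on TMM-scaled CPM alone. PCOLCE2, ADM and WNT5B met it on the corrected scale alone, CCN2, COL4A1, SRPX, DSE, SEMA7A, EPHB3 and PTPRU on both. Further genes named above that met it on neither included RPA3, RNF135, FBF1, SFR1, FANCD2, SNX3, HHAT, ELOVL6, CLDN12, CD83 and MACIR. IRF3, APOBEC3B, TRAPPC6A, MMD, CDK6, SKP2 and SUV39H2 met it on TMM-scaled CPM alone, and STXBP2, EGLN2, EEF1A2, FURIN and PRSS22 on the corrected scale alone. Among the members, whose choice used these libraries, shEZH2 replicate 1 was 1.28 times replicate 2 at the median gene of the first direction, against 1.03 times over all eligible genes and 0.94 times in the second direction. Whether GC content, length or the difference between the shEZH2 libraries accounts for these members was not tested.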

How the data were processed

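The files hold 10 distinct libraries of poly(A) RNA from MDA-MB-231 cells, made with a directional kit, and 8 of the 18 records were exact repeats. The authors mapped reads to hg38 and estimated abundance with RSEM. The submitters' processing notes name STAR 2.7.2b and RSEM 1.3.1, and the methods of the study name another STAR release. The deposited files hold expected counts per gene, in which a read that fits several genes is divided among them, and TPM made by the authors from these and the effective lengths. Whether strand was used in counting is not stated.

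Genes were matched to GENCODE 44 (99.9% of identifiers). Members and gene lists (19 lists, 1204 genes) were chosen with earlier results of these data known. TPM served the rule, and expected counts were rounded and fitted in edgeR 4.0.16 (R 4.3.3) with filterByExpr, TMM scaling and the quasi-likelihood test, and p-values were adjusted by Benjamini-Hochberg across the whole table. The 6 knockdown libraries and the 4 inhibitor libraries were fitted apart with no covariate. A call needed more than 2-fold and an adjusted p under 0.01. The pipeline was tested on simulated data. DESeq2 1.42.0, other scalings and filters, a correction for GC content and length by splines (5 degrees of freedom), the replicate as a block, other forms of the rule and each replicate left out were the alternatives. With totals of 13198932 to 20055550, a count of 0 allows 0.15 to 0.227 CPM (3 counts, counting error only).

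Genes named were, in each direction, the 12 with the largest smaller change over both knockdowns, all on a list, the 2 nearest to each side of the thresholds and those with an unadjusted p under 0.05 under GSK126, and other genes given with values were picked after their values were seen. A few members are counted but not reported here by name. Promoter windows came from RefSeq (GRCh38.p14).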

Additional observations from a re-analysis of the deposited data

How the results depend on the processing

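The count of genes depended on the form of the rule. The numbers of members in the first direction (lower in shEZH2) and the second (higher in shEZH2) were 118 and 105 as reported, 19 and 15 at 2-fold, 311 and 195 on group means, and 46 and 34 by edgeR calls in opposite directions (28 and 29 of them shared). Leaving out a library gave 137 to 205 (205 and 195 without control shRNA replicates 1 and 2, 196 without shEZH2 replicate 1) and 112 to 150, a looser rule by construction. With a floor of 1 TPM they were 147 and 114, and with 10 TPM 81 and 79. The alternatives for controls at 0 TPM, transcript properties, DMSO levels and gene lists were chosen after the data were seen. Leaving out genes with controls at 0 TPM gave 115 and 104. Members by 2-fold had a median length of 2195 bases in the first direction, and members on the corrected scale 3703 and 3439 bases with 53.1% and 52.2% GC.

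Calls among members varied without a library from 81 to 99 (lower in shEZH2), 30 to 43 (higher in shEZH2), 25 to 40 (higher in shE2F1) and 80 to 90 (lower in shE2F1), and 0 were called against the rule. Over all genes they ran from 2015 to 2923 in shEZH2 and 1281 to 1820 in shE2F1. Under GSK126, edgeR called 0 genes, DESeq2 10, and edgeR without a library 37 to 43. The only member among the calls was TFPI2 (1 in each case). The cause was not tested, and a lone library left in a group is assumed to vary like the others. The median change of the first direction (-0.04) was -0.05 in DESeq2, -0.04 with its size factors, -0.06 with the correction for GC content and length, -0.03 with a mean of at least 50 counts, -0.05 with no filter, 0.04 for members by 2-fold and -0.09 to 0.05 without a library. That of the second (0.04) was 0.02 with the correction, 0.02 with no filter, 0.05 for members by 2-fold and 0.01 to 0.05 without a library. DMSO counts without a library were 58 to 74 above and 19 to 29 below in the first direction, and 31 to 55 and 34 to 53 in the second. Calls on the interferon list were 1 to 1 and 11 to 15 (higher and lower in shEZH2) and 6 to 13 and 2 to 2 (shE2F1), and on the matrix list 9 to 15 and 11 to 14, and 6 to 8 and 11 to 16.

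The replicate numbers were shared by groups, but no label ties them to a batch. Deviations of same-numbered libraries correlated across genes at 0.62 between DMSO and GSK126 and at 0.02 to 0.15 among the knockdown groups. With the replicate block edgeR called 68 genes under GSK126 (53 higher, 15 lower), 1 of them a member (TFPI2). Of the 21 members with an unadjusted p under 0.05, 17 had an adjusted p under 0.01 with the block (3.17e-16 to 0.0299 over the 21), all but TFPI2 among the 17 at changes under 2-fold. With same-numbered libraries the rule took 169 and 122 genes. No direction of a named gene turned under an alternative where it was called. Of 896 values of named genes each, 32 lost and 13 gained a call in shEZH2, 32 lost and 5 gained in shE2F1, and 6 of 688 gained under GSK126. With 2 libraries a group, depth and replication limit all values.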

Other observations

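Genes that do not code for protein were outside the rule, and 968 of them had a mean of at least 3 TPM and controls above 0. By the same thresholds, 20 of these lay under the control in shEZH2 and above it in shE2F1, and 10 lay the other way. Among the 20 were 18 long noncoding RNAs, several of them divergent transcripts of coding genes. DPP3-DT was at 6.73 and 6.38 TPM in control shRNA, 2.17 and 2.11 TPM in shEZH2, and 12.4 and 13 TPM in shE2F1, and GATA2-AS1 was at 7.6 and 7.21 TPM, 3.73 and 3.5 TPM, and 12.7 and 11.7 TPM. HEIH was at 11.9 and 9.94 TPM, 6.34 and 3.78 TPM, and 21.5 and 19.1 TPM. In each the groups were apart, as the thresholds require.

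Among the 10 of the reverse direction was MYH16, a myosin heavy chain pseudogene, at 3.65 and 2.45 TPM in control shRNA, 11.1 and 13.1 TPM in shEZH2, and 0.63 and 0.62 TPM in shE2F1. MYH15, a coding gene on another chromosome, was in the same direction. The small nucleolar RNAs SNORD3A (18.2 and 18.3 TPM in control shRNA, 51.4 and 54.4 TPM in shEZH2, 8.9 and 7.47 TPM in shE2F1) and SNORD3B-2 were also there. Such RNAs have no poly(A) tail, and SNORD3A was at 4.69 TPM in DMSO replicate 1 and 18 TPM in DMSO replicate 2, a wider gap than between the control shRNA libraries. The genes of these paragraphs were picked after their values were seen.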
